A study of Rattus norvegicus with 3 samples.

Results

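The genes described here are elastin and 9 genes whose proteins build or organise elastic fibres: Eln, Fbn1, Fbln1, Fbln2, Fbln5, Efemp2, Emilin1, Mfap2, Mfap4 and Ltbp2. They were taken from a list of 10 genes, and a probe was counted as theirs when its RefSeq accession belonged to one of them. In all 9 of the 10 genes had a probe, out of 15290 genes named on the arrays, and Fbln2 had none. The 9 genes were read by 20 probes, of which 8 were on the older array design only, 8 on the design of the day 7 array only, and 4 on both.

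Male Wistar rats were used, and RNA came from whole pieces of their common carotid artery. The vessel was taken 7 or 21 days after balloon injury, or was uninjured. In this model a balloon catheter is drawn through the lumen, which removes the endothelial lining and distends the media. The files held 3 one-colour arrays, 1 for each group, so the groups have no replicates, nothing could be tested, and each difference below is between 2 arrays. The labels give no age, and although RNA was isolated per animal they do not say how many rats stand behind an array.

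Elastic fibres give the artery its recoil. Smooth muscle cells and fibroblasts secrete tropoelastin, the product of Eln, which is laid down on a scaffold of fibrillin microfibrils, guided by fibulins and joined by lysyl oxidases into sheets called elastic laminae. Mature elastin turns over very slowly, and most of it is made while the vessel is growing. Microfibrils also hold latent TGF-beta in the matrix through LTBP proteins.

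The day 21 and uninjured arrays were of the same design and scanned together. The day 7 array differed in its design, its scan and the release of the software that read it. In comparisons with day 7, batch and time after injury therefore cannot be told apart. Signals are given as multiples of the 75th percentile of the array, and ratios as log2 ratios, where 1 means 2-fold. Each ± is a technical SD of the ratio, estimated from probes printed several times, at the brightness of the gene. Between 59.8% and 76.6% of the probes of an array were well above background, no spot was saturated, and all 20 probes of the elastic fibre genes were well above background wherever they were printed. In whole tissue, fewer cells of a type and less RNA per cell cannot be told apart.

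The tissue label was checked against smooth muscle markers. All 11 contractile markers with a probe on the older design passed the background call on both of its arrays. At its brightest probe each of the 11 was lower by 2-fold or more at day 21 than in the uninjured artery, with a median log2 ratio of -2.39. The other probe of Myh11 was at -0.51 and that of Mylk at -0.46, within 2-fold. The summed scaled signal of the 11 markers was 544 at day 21 and 3191 in the uninjured artery. Of the macrophage markers, 8 of the 8 measured were higher by 2-fold or more at day 21, with a sum of 1638 at day 21 and 36.3 in the uninjured artery. Fibroblast markers had a sum of 192 at day 21 and 598 in the uninjured artery, with 6 of 8 at least 2-fold lower and 1 higher. Endothelial markers were at least 2-fold higher in 4 of 5, with a sum of 18.9 at day 21 and 4.001 in the uninjured artery. The part of these cell markers in the results below was not tested.

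How the genes stood late after injury was read from day 21 against uninjured, the only comparison that covered elastin itself. Of the 9 elastic fibre genes measured, 2 were at least 2-fold higher at day 21 (Emilin1 and, at the brighter on average of its 2 probes, Fbn1), 2 were at least 2-fold lower (Mfap2 and Mfap4), and 5 were within 2-fold. Of all 9418 genes measured, meaning well above background on each of the 2 arrays, 9.12% were higher and 13.7% lower by 2-fold or more. The median log2 ratio of the 9 genes was -0.54, beside -0.20 over all genes.

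Eln, the gene of tropoelastin, read 1.95 times the 75th percentile at day 21 and 2.52 times in the uninjured artery. Its log2 ratio of -0.36 ± 0.38 was smaller than the spread of replicate spots at that brightness. Relative to the median of all genes the ratio was -0.17, and over 7 alternative settings this lay between -0.46 and 0.01. At this signal a change in the elastin transcript by day 21 was not detectable on this probe.

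Mfap4 and Mfap2, of the scaffold, were lower by 2-fold or more. Mfap4 encodes microfibril-associated protein 4, which binds tropoelastin and fibrillin and is abundant in arterial walls. Its signal was 10.3 times the 75th percentile at day 21 and 25.0 times in the uninjured artery, a log2 ratio of -1.28 ± 0.14, or 2.44-fold lower. Mfap2, which encodes the microfibril glycoprotein MAGP-1, read 0.414 times at day 21 and 0.978 times in the uninjured artery, with a log2 ratio of -1.24 ± 0.30. Both ratios were several times the spread of replicate spots. With each array centred on its median, Mfap4 was at -0.81 and Mfap2 at -0.76, and with normexp background correction at -0.67 and -0.74, so both were then within 2-fold.

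Ltbp2 encodes a fibrillin-binding protein of the LTBP family that, unlike its relatives, does not bind latent TGF-beta. It read 4.40 times the 75th percentile at day 21 and 6.81 times in the uninjured artery, a log2 ratio of -0.63 ± 0.28, within 2-fold. The ratio was -0.15 with each array centred on its median and -0.16 with normexp background correction.

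Fbn1, which encodes fibrillin-1, the main protein of microfibrils, was read by 2 probes that disagreed in sign. At probe A_44_P996061 it read 37.1 times the 75th percentile at day 21 and 18.0 times in the uninjured artery, a log2 ratio of 1.05 ± 0.15. At probe A_44_P179745 it read 17.4 times at day 21 and 31.6 times in the uninjured artery, a log2 ratio of -0.86 ± 0.14. Each ratio was several times the spread of replicate spots, so the arrays give no single direction for Fbn1. Opposite signs were found for 553 of the 1783 genes with several measured probes in this comparison. The median range between the probes of those 1783 genes was 0.46 on the log2 scale, smaller than that between the Fbn1 probes.

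Fibulins join tropoelastin to microfibrils and to the cell surface, and Fbln5, Efemp2 and Fbln1 were within 2-fold at day 21. Fbln5, which encodes fibulin-5, needed to organise elastic fibres in mice, read 13.3 times the 75th percentile at day 21 and 13.4 times in the uninjured artery, a log2 ratio of -0.01 ± 0.15. Efemp2, which encodes fibulin-4, the partner of lysyl oxidase in elastin cross-linking, read 40.9 times at day 21 and 59.3 times in the uninjured artery, a log2 ratio of -0.54 ± 0.14. Fbln1, a fibulin found in the core of elastic fibres, had log2 ratios of -0.88 ± 0.39 and -0.85 ± 0.57 at its 2 probes. At its brighter probe it read 1.30 times at day 21 and 2.39 times in the uninjured artery. Of these fibulins Fbln1 thus lay nearest to the 2-fold line, and the Fbln5 values differed by less than the spot spread under the reported scaling. With each array centred on its median, Fbln5 was at 0.47, Efemp2 at -0.06 and Fbln1 at -0.40. Normexp background correction gave 0.35 for Fbln5, 0.13 for Efemp2 and -0.38 for Fbln1, so the sign of Efemp2 depended on the processing.

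Emilin1 was higher at day 21 on both of its probes. It encodes a glycoprotein of the border between elastin and microfibrils, which restrains TGF-beta processing in mice. At probe A_44_P556531 it read 10.4 times the 75th percentile at day 21 and 5.05 times in the uninjured artery, a log2 ratio of 1.04 ± 0.19. At probe A_44_P556528 it read 9.20 times at day 21 and 3.83 times in the uninjured artery, a log2 ratio of 1.26 ± 0.23. It was at least 2-fold higher under all 7 alternative settings, with log2 ratios between 1.03 and 1.52. The plot of ratios by probe shows Emilin1 and one Fbn1 probe on the right, and Mfap2 and Mfap4 on the left.

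**Figure D1:**
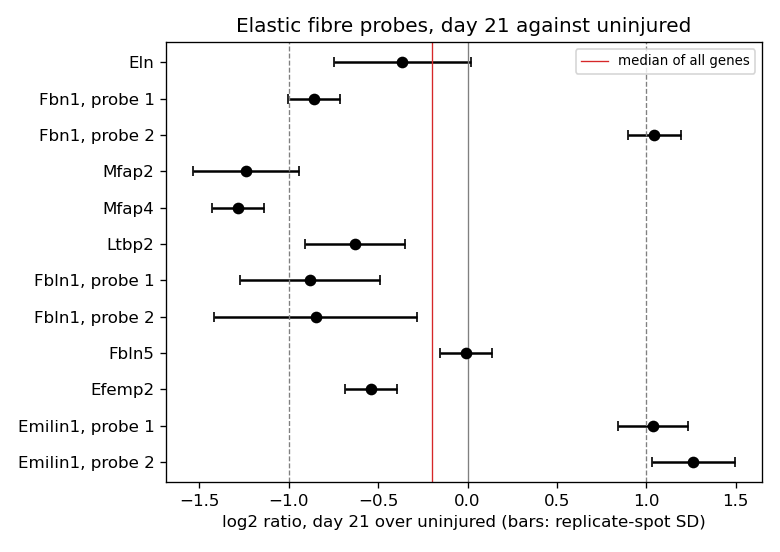
Log2 ratio of day 21 over uninjured for each elastic fibre probe on the older design, 1 array per group; bars are the replicate-spot SD, dashed lines mark 2-fold and the red line the median of all genes (-0.20). Where a gene has 2 probes, probe 1 is the one brighter in the uninjured artery. Emilin1 lies at 1.04 and 1.26 and the Fbn1 probes at -0.86 and 1.05, while Mfap2 and Mfap4 lie at -1.24 and -1.28.

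The early artery was read from day 7 against uninjured. Of the elastic fibre genes, only Fbn1, Fbln5, Mfap2 and Mfap4 had a probe on both designs, and none of these 4 was at least 2-fold higher or lower at day 7. Of the 5260 genes measured on these arrays, 16.1% were higher and 16.3% lower by 2-fold or more. The median log2 ratio of the 4 genes was -0.15, beside -0.01 over all genes.

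Signals in this and the next comparison are multiples of the 75th percentile of the probes shared by all arrays, so they differ in scale from those above. Mfap4 read 14.6 times that percentile at day 7 and 9.75 times in the uninjured artery, a log2 ratio of 0.59 ± 0.14. Mfap2 read 0.422 times at day 7 and 0.381 times in the uninjured artery, a log2 ratio of 0.15 ± 0.20, within the spread of replicate spots, and it was below 0 in 6 of 9 alternatives. On the day 7 array Mfap2 was printed on 10 spots, of which the 8 without an outlier flag lay between 87.8 and 114 intensity units.

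Fbn1 read 9.06 times at day 7 and 12.3 times in the uninjured artery, a log2 ratio of -0.44 ± 0.14, at the probe that was also lower at day 21. Fbln5 read 3.72 times at day 7 and 5.23 times in the uninjured artery, a log2 ratio of -0.49 ± 0.13. Both ratios were more than 3 times the spread of replicate spots and within 2-fold. With normexp background correction Fbn1 was at -0.30 and Fbln5 at -0.15. Relative to the median of all genes, Fbn1 lay between -0.43 and 0.31 over the 9 alternatives. Fbln5 lay between -0.65 and 0.0003, so neither stayed below that median in all of them. With the percentile taken over each design in full, which lowers the median of all genes by 1.22, the ratios became -0.63 for Mfap4, -1.07 for Mfap2, -1.66 for Fbn1 and -1.71 for Fbln5. Mfap4 was the only one of the 4 that stayed above the median of all genes in all 9 alternatives, by 0.60 to 1.07. Median centring and the percentile over each design shift all genes alike, so in no comparison could they change the distance of a gene from that median. Keeping only genes well above background could not change it either, because all members measured passed that call.

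Day 21 against day 7 set the injured arteries beside each other. Mfap4 and Mfap2 were at least 2-fold lower at day 21 than at day 7, and Fbn1 and Fbln5 were within 2-fold. Of the 5648 genes measured, 10.8% were higher and 19.9% lower by 2-fold or more. The median log2 ratio of the 4 genes was -1.05, beside -0.19 over all genes.

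Mfap4 read 3.61 times the 75th percentile of shared probes at day 21 and 14.6 times at day 7, a log2 ratio of -2.02 ± 0.16, or 4.05-fold lower. Mfap2 read 0.146 times at day 21 and 0.422 times at day 7, a log2 ratio of -1.53 ± 0.23. Fbn1 read 6.14 times at day 21 and 9.06 times at day 7, a log2 ratio of -0.56 ± 0.16, and Fbln5 read 4.70 times at day 21 and 3.72 times at day 7, a log2 ratio of 0.34 ± 0.15. Mfap4 was lower in all 9 alternatives, by 0.65 to 2.02 on the log2 scale, and lay 1.43 to 2.17 below the median of all genes. Mfap2 was past 2-fold in 5 of 9 alternatives, and was at -0.93 with normexp, -0.64 in the authors' deposited table and -0.16 with the percentile over each design. Across the arrays Mfap4 and Mfap2 therefore shared an order with day 7 highest and day 21 lowest, though the Mfap2 values at day 7 and in the uninjured artery differed by less than the spot spread, and with the percentile over each design both genes were lower at day 7 than in the uninjured artery. On its shared probe Fbn1 was highest in the uninjured artery and lowest at day 21. In 3 of 9 alternatives, however, Fbn1 was higher at day 21 than at day 7. Its log2 ratio was then 0.81 with the percentile over each design and 0.67 in the authors' deposited table.

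**Figure D2:**
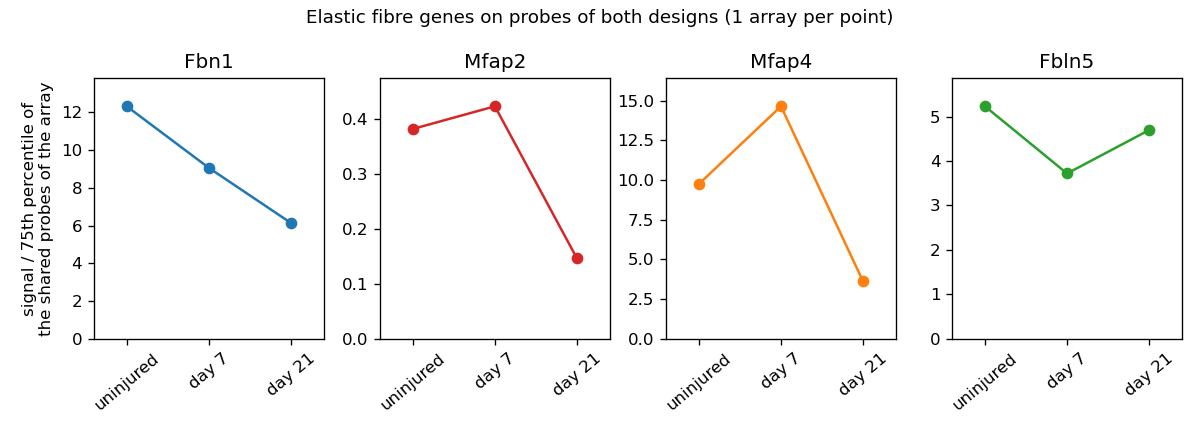
Signal of the 4 elastic fibre genes with a probe on both designs, as a multiple of the 75th percentile of shared probes of the array, with 1 array per point and a separate linear axis from 0 for each gene. Mfap4 stands at 9.75, 14.6 and 3.61 in the uninjured, day 7 and day 21 arrays, and Mfap2 at 0.381, 0.422 and 0.146.

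**Figure D3:**
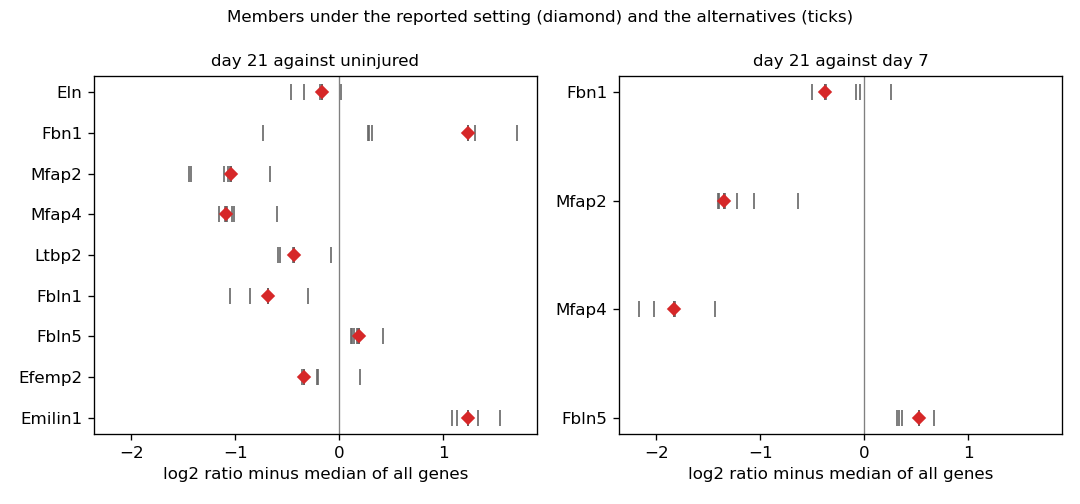
Log2 ratio minus the median of all genes for each elastic fibre gene, for day 21 against uninjured (left) and day 21 against day 7 (right), with diamonds for the reported setting and ticks for the alternatives. Emilin1 stays between 1.09 and 1.55 on the left, Mfap4 between -2.17 and -1.43 on the right, and Fbn1 runs from -0.73 to 1.71 on the left.

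Eln, Fbln1, Efemp2, Emilin1 and Ltbp2 were read at day 7 only by probes that the other arrays did not carry, so no ratio to day 7 is given for these 5 genes. On the day 7 array the Eln probes read 69681 intensity units at A_64_P138919 and 575 at A_43_P15663. Emilin1 read 7975 and 103 units, Ltbp2 read 3426 and 325 units, and Efemp2 and Fbln1 read 2988 and 51.0 units at 1 probe each. These are readings of different probes and have no order among themselves. Because Eln had no shared probe, no genes of like pattern were sought for it.

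The authors' deposited table gives a value for these genes on all 3 arrays, under probe names of the day 7 design. For Eln the authors' deposited table has log2 values of 8.59, 15.42 and 8.07 for uninjured, day 7 and day 21. Its day 7 value is 6.26 above the log2 signal of 9.17 that the scanner file holds for the probe naming that row. In the authors' deposited table the Ltbp2 value at day 7 is 2.59 above the scanner signal of its probe, whereas for the 4 genes on shared probes table and scanner differ by -0.33 to 0.15. Over 9232 rows compared, 86 (0.932%) lay more than 3 log2 units from the median difference. The sources used here do not give the steps behind these values.

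For day 21 against uninjured, the authors' deposited table has Emilin1 at 1.03, Mfap2 at -1.48, Mfap4 at -1.07, Fbln1 at -1.11, Ltbp2 at -0.65, Eln at -0.52, Efemp2 at -0.27, Fbln5 at 0.08 and Fbn1 at 0.26. In the authors' deposited table Fbn1 is listed under probe A_44_P179745, whose scanner ratio was -0.86, so the row differs in sign from the probe that names it. The other Fbn1 probe of the older design had a scanner ratio of 1.05, and the mean of both probes gave 0.09. Whether the row draws on both probes was not tested. Fbln5 differs in sign too, from a scanner ratio of -0.01, and the other 7 genes have the sign of the scanner ratio.

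The wider elastic fibre pathway was described by lists of genes for cross-linking, microfibrils, elastases and receptors. Their ratios are given under the reported scaling. The percentile over each design lowers every day 7 ratio to uninjured by 1.22 and raises every ratio of day 21 to day 7 by 1.37. Median centring lowers the day 7 ratios to uninjured by 0.38. It raises those of day 21 to uninjured by 0.48 and those of day 21 to day 7 by 0.46. Ratios smaller than these shifts can therefore change sign. Lysyl oxidases turn tropoelastin into insoluble fibre. Loxl2 was higher at both times: it read 0.805 times the 75th percentile of shared probes at day 7 and 0.175 times in the uninjured artery, a log2 ratio of 2.20 ± 0.26, and on all probes 2.52 times at day 21 and 0.449 times in the uninjured artery, a log2 ratio of 2.49 ± 0.39. Loxl1, the family member tied to elastic fibres in mice, was within 2-fold at day 7 (-0.36 ± 0.13) and, at another probe, at day 21 (-0.63 ± 0.15). Its other probe on the older design gave -0.019 at day 21. In all, Loxl2 was the 1 gene past 2-fold, of 2 measured at day 7 and 4 at day 21. Loxl3 and Loxl4 had log2 ratios of 0.39 ± 0.37 and -0.41 ± 0.42 at day 21.

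Other microfibril and fibulin genes were split. At day 21 against uninjured, 1 of 8 measured genes was at least 2-fold higher and 3 were at least 2-fold lower, with a median log2 ratio of -0.44. Mfap5, which encodes the microfibril glycoprotein MAGP-2 and is also a fibroblast marker, was at -2.07 ± 0.14. The latent TGF-beta binding proteins Ltbp1 and Ltbp4 were at -1.28 ± 0.14 and -1.19 ± 0.19. Efemp1, which encodes fibulin-3, was at 1.75 ± 0.24, and Mfap3, which was below the background call in the uninjured artery, was at least 2.29-fold higher. At day 7 against uninjured, 1 of 6 was at least 2-fold higher and 1 lower, with Ltbp4 at -1.83 ± 0.13, the collagen and elastin chaperone gene Fkbp10 at 1.03 ± 0.23, Efemp1 at 0.98 ± 0.23 and Mfap5 at 0.47 ± 0.14. Between the days Mfap5 was 6.44-fold lower at day 21 than at day 7 (-2.69 ± 0.16) and Fkbp10 was at -1.23 ± 0.31, 2 of 6 at least 2-fold lower and 0 higher. Mfap5 thus had the same order over the arrays as Mfap4 and Mfap2.

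Several proteases that cut elastin were higher in the injured artery. At day 7, 3 of 4 measured genes were at least 2-fold higher, and 3 more had a bound of at least 2-fold. The cathepsin genes Ctsk, Ctss and Ctsl were at 3.20 ± 0.24, 2.31 ± 0.24 and 1.22 ± 0.14, the gelatinase gene Mmp9 was at least 6.63-fold higher, and Mmp7 (matrilysin) and Mmp12 (macrophage elastase) at least 47.2-fold and 138-fold higher. At day 21, 2 of 7 were at least 2-fold higher and 1 lower, with 3 further bounds upward, for Mmp7 (at least 21.4-fold), Mmp12 (at least 370-fold) and Mmp9 (at least 9.55-fold). Ctsk was at 1.69 ± 0.24 and Ctsl at 0.91 ± 0.15, while the mast cell and neutrophil protease gene Ctsg was at -1.08 ± 0.69. The other Ctsl probe was at 1.42, past 2-fold. The Ctss ratio was 5.42 ± 0.25. Between the days Ctss was higher at day 21 (2.94 ± 0.16) and Mmp12 was at 1.26 ± 0.16, whereas Ctsk was lower (-1.66 ± 0.16) and Mmp7 was at -1.30 ± 0.30. The neutrophil elastase gene Elane, below the background call at day 21, had a bound of 3.24-fold lower. That bound, -1.70 on the log2 scale, had a technical SD of 1.16. Mmp2, the gelatinase made by smooth muscle cells and fibroblasts, was at 0.52 ± 0.12 at day 7 against uninjured.

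Most inhibitors of these proteases were within 2-fold of the uninjured artery. At day 7 against uninjured, 1 of 7 measured inhibitor genes was at least 2-fold higher, Timp1 at 1.45 ± 0.04, and 1 was at least 2-fold lower, Cst3 at -1.04 ± 0.14. At day 21 against uninjured none of 8 was at least 2-fold higher and Serpina1, which encodes the elastase inhibitor alpha-1-antitrypsin, was at -1.35 ± 0.33. Slpi, an inhibitor of neutrophil elastase, was at least 5.28-fold higher at day 21 than in the uninjured artery at the brighter of its 2 probes. On the scale of shared probes, its other probe read 0.0688 at day 21 and 0.0386 in the uninjured artery. That probe was below the background call in the uninjured artery, so the bound of 5.28-fold holds for the brighter probe only. Timp1 was 3.50-fold lower at day 21 than at day 7 (-1.81 ± 0.05).

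Genes of the elastin receptor complex, which senses elastin fragments, were higher at both times, except Lgals3 at day 7. The complex is formed by a splice form of beta-galactosidase (Glb1) with neuraminidase (Neu1) and the protective protein cathepsin A (Ctsa), enzymes that also work in lysosomes, and galectin-3 (Lgals3) also binds elastin. At day 21, 4 of 4 were at least 2-fold higher, Lgals3 at 2.03 ± 0.15, Neu1 at 1.31 ± 0.36 and Glb1 at 1.09 ± 0.36, and Ctsa by 2.14-fold. At day 7, 3 of 4 were at least 2-fold higher, Glb1 at 1.72 ± 0.23, Neu1 at 1.70 ± 0.21 and Ctsa at 1.02 ± 0.14, with Lgals3 at 0.05 ± 0.14. Lgals3 and Ctss are also strongly expressed in macrophages, whose markers were higher on the same arrays (medians of 3.62 at day 7 and 4.68 at day 21).

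Integrins that bind elastic fibre proteins had median log2 ratios to uninjured of -0.83 at day 7, where 1 of 4 was higher and 1 lower by 2-fold or more, and -0.82 at day 21, where 0 of 4 were higher and 2 lower. Itga8, a smooth muscle integrin subunit, was at -1.91 ± 0.66 at day 7 and, at another probe, -1.23 ± 0.38 at day 21. Itgb1 was at -0.96 ± 0.14 at day 7 and -1.13 ± 0.14 at day 21, and at its other probe at -1.86 and -0.43. Itga5, of the fibronectin receptor, was at 1.08 ± 0.24 at day 7 and -0.51 ± 0.38 at day 21, where its probes ran from -1.36 to -0.51.

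Of the other matrix genes, 2 of 11 were higher by 2-fold or more at day 21 against uninjured, Fn1 (fibronectin) at 2.44 ± 0.15 and Lum at 2.19 ± 0.15. By the same threshold 1 was lower, Vcan (versican) at -1.05 ± 0.22, though its other probe was at -0.22. The median of these matrix genes, -0.57, lay beside the -0.54 of the elastic fibre genes. At day 7 their median was 0.29, with 3 of 9 at least 2-fold higher (Postn at 1.80 ± 0.14, Fn1 at 1.65 ± 0.14 and Col1a1 at 1.26 ± 0.14) and 2 lower (Bgn at -1.16 ± 0.14 and Col3a1 at -1.06 ± 0.14). Against uninjured, Tnc (tenascin-C) had bounds of at least 24.9-fold upward for day 7 and 7.28-fold for day 21. At day 21 against day 7, Lum was at 1.17 ± 0.16, and Postn, Tnc and Col1a1 were at -2.28 ± 0.21, -1.93 ± 0.33 and -1.39 ± 0.16.

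Cell markers also differed at day 7. Contractile markers were at least 2-fold lower in 6 of 7, with a summed scaled signal of 63.7 at day 7 and 450 in the uninjured artery. Macrophage markers were at least 2-fold higher in 6 of 6 and endothelial markers in 4 of 4, and of 3 fibroblast markers 1 was lower by 2-fold or more, with a median of -0.26. The fibroblast sum was 54.3 at day 7 and 55.6 in the uninjured artery, of which Mfap5 made up 49.4 at day 7 and 35.6 in the uninjured artery. Cygb was at -2.50 ± 0.13. Cd34 was below the background call at day 7, and its bound of 2.07-fold lower, -1.05 on the log2 scale, was smaller than its technical SD of 1.21. Between the days the fibroblast sum was 16.6 at day 21 and 54.3 at day 7, of which Mfap5 made up 7.67 at day 21 and 49.4 at day 7. The median ratio of the elastic fibre genes lay nearer to 0 than that of the contractile markers in both comparisons with the uninjured artery, -0.15 against -2.54 at day 7 and -0.54 against -2.39 at day 21.

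**Figure D4:**
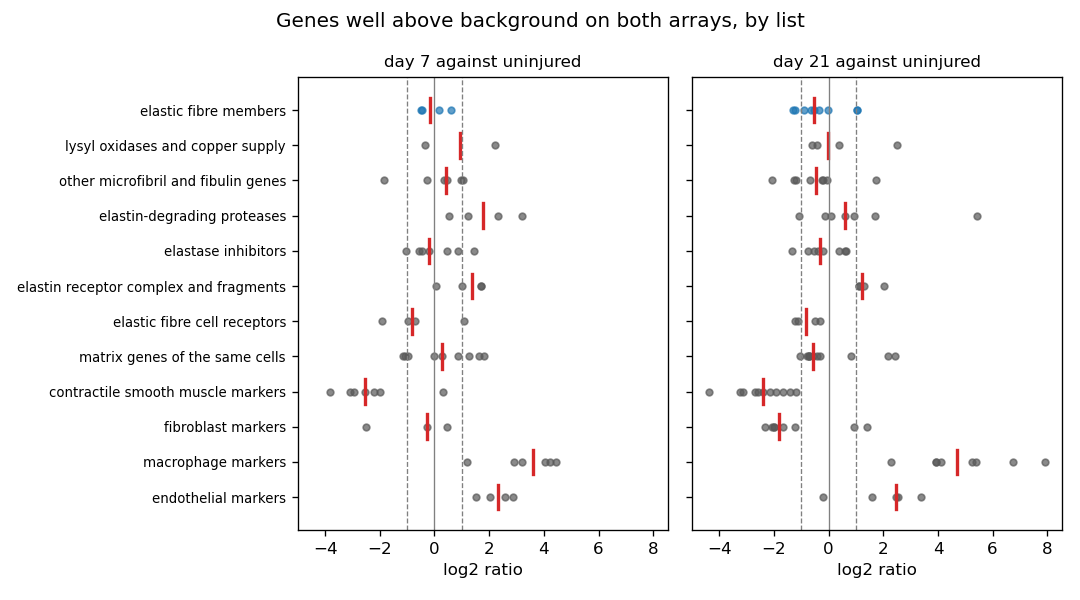
Log2 ratios of the measured genes of each list, for day 7 against uninjured (left) and day 21 against uninjured (right), each point 1 gene, red bars the medians and dashed lines 2-fold. The elastic fibre genes (blue) lie between -0.49 and 0.59 at day 7 and between -1.28 and 1.05 at day 21, and the medians of the contractile markers (-2.54 and -2.39) lie left of both ranges and those of the macrophage markers (3.62 and 4.68) right of them, while Lmod1 at day 7 and Mylk at day 21 fall within the ranges.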

How the data were processed

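Per the file headers, spot intensity values came from Agilent Feature Extraction 10.7.3.1 (day 21, uninjured) and 11.0.1.1 (day 7). Only 10.7.3.1 is named in the submitters' processing notes. The designs are on rn4, per the file headers, and no coordinates are given. The authors' deposited values are log2 and cover 9260 rows, 3957 of them under probes of the day 7 design only (array medians 7.64, 7.62 and 7.64 in time order from uninjured). They rise with the day 7 scanner signals (Pearson r = 0.968 across 9232 rows, which are not independent), and the sources used here do not give their normalization. Control spots and outlier-flagged spots were left out (0.242% of gene spots flagged on the uninjured array, 1.46% at day 7 and 0.274% at day 21), log2 values of a probe's spots were averaged, and the 75th percentile was subtracted, over all 40989 common probes for day 21 against uninjured and over the 10583 probes unflagged on all 3 arrays otherwise. Accessions were matched without versions to RefSeq symbols (GRCr8): 42.7% and 75.9% of those probes in the comparisons with uninjured. A gene was read at its probe with the highest mean signal. A 2-fold threshold was used where both arrays passed the background call. Where 1 array failed it, a bound was computed against that array's lowest passing signal, or the gene's own signal there if higher. Spot spread came from unflagged probes with 3 or more spots (median SD 0.206, 0.109 and 0.171 for uninjured, day 7 and day 21). All elastic fibre genes were named. From each other list up to 4 genes with the largest ratios, those 2-fold the other way and those with a bound were eligible in each comparison. The ratio code was tested on simulated data. The members and lists were chosen with earlier results of these data known. The planned normexp correction, with offset 50 (limma 3.58.1, R 4.3.3), used median spot signals, since the files hold no mean signal. Other steps used Python 3.11.15, numpy 2.4.6 and pandas 2.3.3. The number of arrays limits the precision.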

Additional observations from a re-analysis of the deposited data

Results flagged for a closer look

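Mfap4 differed in direction between the 2 times on its shared probe: its log2 ratio to uninjured was 0.59 at day 7 and -1.43 at day 21, and with the percentile over each design the day 7 ratio turned to -0.63. The difference was not tested, both ratios share the uninjured array, and the day 7 array differs in design and scan.

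The Eln row of the authors' deposited table, a file outside the main measurement, is 6.84 higher at day 7 than in the uninjured artery on the log2 scale (114-fold). The scanner signals hold no probe of Eln that was read on both arrays, so this difference has no counterpart in them. At day 7 the Eln probes were A_64_P138919, at 69681 intensity units, and A_43_P15663, at 575. The uninjured array carried neither and read Eln at A_44_P454386, at 124 units. The 114-fold value can therefore not be read as a change in the elastin transcript, and which probes it draws on was not tested.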

How the results depend on the processing

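Of the medians and counts under alternatives, 51 kept their place, 28 moved and 2 reversed, and the cause was not tested unless stated. Some could only keep their place. Keeping genes well above background dropped no member, and in comparisons with day 7 each member had 1 shared probe to average. The lower genes at day 21 against uninjured, 2 as reported, were taken as kept at 3 in the authors' deposited table and on probes of all 3 arrays. No paired analysis was possible because each group has 1 array, and for the same reason none could be left out. The median at day 7 against uninjured (-0.15) was -0.53 with median centring, -0.41 in the authors' deposited table (9 genes, 3 at least 2-fold higher and 2 lower), -0.63 on its shared probes (1 lower) and -1.37 with the percentile over each design (3 lower). At day 21 against uninjured (-0.54) it was -0.059 with median centring and -0.061 with normexp (0 lower in each) and -1.20 on probes of all 3 arrays (4 genes, 0 higher). The count of higher genes was 1 with the mean of all probes of a gene, 1 in the authors' deposited table and 0 on its shared probes. At day 21 against day 7 (-1.05) the median was -0.58 with median centring, -0.81 with quantile normalization, -0.63 with normexp (1 lower) and -0.64 in the authors' deposited table (2 higher and 4 lower). It turned to 0.014 on its shared probes (1 higher, 1 lower) and to 0.32 with the percentile over each design (1 higher, 0 lower), which lifts all genes by 1.37. Fbn1 at day 21 against uninjured turned to -1.01 on probes of all 3 arrays, which leave out its other probe. Keeping flagged spots and the table's shared probes were chosen after seeing the data. Of genes at least 2-fold apart, the share higher was 49.7% at day 7, against 26.2% with median centring and 5.47% with the percentile over each design. At day 21 it was 39.9%, against 77.1% with median centring, 55.6% with quantile normalization and 74.9% with normexp. Between the days it was 35.1%, against 66.0% with median centring, 59.5% with quantile normalization and, with the percentile over each design, 95.3%. Median centring shifts the median of all genes by -0.38, 0.48 and 0.46 in the 3 comparisons.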
